A study of Mus musculus with 14 samples.

Results

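The subject here is a set of 6 genes for cell surface proteins by which blood stem and progenitor cells are recognised: Itga2b, Ptprc, Cd34, Adgrg1, Procr and Flt3. They were taken by gene symbol from a table of 53465 genes, each symbol matched 1 row, and all 6 were found. The study compared polyA RNA of mouse dorsal skin and of the aorta-gonad-mesonephros region (AGM) over embryonic days. The AGM is the strip of trunk around the dorsal aorta in which the definitive blood stem cells arise.

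All 14 libraries came from wild-type C57BL/6 embryos with no treatment recorded. Dorsal skin spans 4 days, E9.5 and E10.5 followed by E12.5 and then E14.5, with 1 library per day under titles beginning with E and 1 per day under titles beginning with ES. The labels do not say what ES stands for, and both title series carry project labels of their own, so they were kept apart. The AGM libraries carry the ages E9.5, then E10.5, then E11.5, each in 2 rounds, which makes 6. At E9.5 the AGM tissue was the caudal portion of the embryo with the part the labels call PsP. In the count table the round 2 columns show only a sample number, and their ages rest on the assumption that this number means the same as in round 1. Nothing says whether the libraries of a group came from separate embryos or how many embryos were pooled, so a p-value here reflects the spread of these samples alone, and that spread may be technical.

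Blood stem cells arise when specialised endothelial cells of the aorta lose their vessel character, round up and bud into the lumen. Itga2b, the integrin alpha subunit CD41, is known as an early surface sign of that step, and Ptprc, the phosphatase CD45 carried by nearly all white blood cells, appears later. Cd34, Procr and Adgrg1 are shared between endothelium and stem cells, while Flt3 marks progenitors that no longer renew for life. None of the 6 is restricted to stem cells: platelets and their precursors carry Itga2b, macrophages carry Ptprc, vessels carry Cd34 and Procr, and neural progenitors carry Adgrg1.

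The stretches upstream of the transcript start are printed for 4 of the genes, because factors of the GATA, ETS and RUNX families are known to control blood stem cell genes. They come from RefSeq promoters of GRCm38.p6, which list 8 starts for the 6 members, and each was shortened where needed so that it ends before the coding transcript begins. Capitals mark matches, on either strand, to the GATA words AGATAA (or, with a G last, AGATAG) and TGATAA (or, with a G last, TGATAG), the ETS words AGGAAG (or, with a C first, CGGAAG) and the RUNX words TGTGGT (or, with a C inside, TGCGGT), none of which contains another. Itga2b and Ptprc are shown because their levels differed between AGM and skin, Cd34 because its level moved least in the AGM, and Procr because of its level in ES-titled skin. The windows are chr11:102469884-102470133 on the minus strand for Itga2b, chr1:138175307-138175555 on the minus strand for Ptprc, chr1:194938571-194938818 on the plus strand for Cd34, and chr2:155750967-155751116 on the plus strand for Procr. In GENCODE M21 the Itga2b window overlaps an exon of another, non-coding transcript of the gene, and the Ptprc window lies in an intron of a longer transcript. Each line reads 5′ to 3′ on the gene's strand.
Itga2b: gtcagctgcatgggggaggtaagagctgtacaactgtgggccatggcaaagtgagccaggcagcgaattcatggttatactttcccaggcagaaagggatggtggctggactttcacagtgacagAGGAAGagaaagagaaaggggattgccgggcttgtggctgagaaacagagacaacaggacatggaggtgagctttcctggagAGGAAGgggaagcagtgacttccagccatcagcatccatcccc
Ptprc: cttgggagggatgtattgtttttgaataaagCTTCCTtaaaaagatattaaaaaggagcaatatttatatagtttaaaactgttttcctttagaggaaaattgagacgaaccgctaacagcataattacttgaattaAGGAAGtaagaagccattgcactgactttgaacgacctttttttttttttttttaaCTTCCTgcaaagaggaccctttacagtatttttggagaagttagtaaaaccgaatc
Cd34: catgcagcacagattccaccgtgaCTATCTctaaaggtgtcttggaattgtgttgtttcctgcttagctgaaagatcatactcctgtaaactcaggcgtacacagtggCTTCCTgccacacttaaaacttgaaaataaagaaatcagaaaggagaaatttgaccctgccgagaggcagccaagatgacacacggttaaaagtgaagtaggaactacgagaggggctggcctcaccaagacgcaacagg
Procr: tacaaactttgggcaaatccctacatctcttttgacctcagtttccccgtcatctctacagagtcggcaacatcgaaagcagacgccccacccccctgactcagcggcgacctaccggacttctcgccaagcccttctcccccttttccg
The Itga2b window held 2 ETS matches, and of 32851 promoters cut to the same 250 bases 39.2% held at least 1. The Ptprc window held 3 ETS matches, with a share of 39.1% at its 249 bases. The Cd34 window held 1 GATA and 1 ETS match, against shares of 26.4% and 39.0% at 248 bases. The Procr window of 150 bases held none of the words, and at that length 18.6% of promoters held a GATA and 23.2% an ETS match. RUNX words were in none of the 4 printed windows and in 18.6% of promoters at 250 bases. Among the windows not printed, that of Flt3, of 250 bases, held 1 RUNX match. The other Ptprc window held 1 ETS match, with a share of 17.8% at its 116 bases. Adgrg1, whose level also differed between AGM and skin, held none of the words in either of its windows. These are letter matches only.

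Total counts ran from 6770338 to 29534551 per library. Levels below are CPM, counts scaled to a common library total, and intervals on them cover counting error only. Timing and tail genes in the AGM libraries went against the age labels. Lin28a, an RNA-binding protein of early embryos, went in E-titled skin from 366 to 84.6, 0.667 and 0.94 CPM over the 4 days, whereas it was at 22.99 and 40.9 CPM in the AGM libraries labelled E9.5, 122 and 129 in those labelled E10.5, and 571 and 496 in those labelled E11.5. Tbx6, of the tail's presomitic mesoderm, was at 21.8 and 10.54 CPM in the libraries labelled E11.5 and between 0.659 and 1.12 CPM in the other 4. Wt1, of the coelomic lining that the AGM contains, was at 117 and 104, then 86.4 and 78.0, then 8.86 and 8.87 CPM in label order. The ages are therefore given as labels and no direction of development is drawn from them. Vessel markers were present in every AGM and E-titled skin library, with Pecam1 between 32.2 and 136 CPM. In ES-titled skin Pecam1 was between 0.389 and 0.739 CPM, the summed haemoglobin genes reached no more than 0.148 CPM, and Krt5 of basal epidermis was between 0.324 and 1.63 CPM. Other vessel genes were not near 0 there, with Flt1 at 75.7 to 92.5, Kdr at 7.19 to 25.6 and Eng at 11.7 to 21.1 CPM. The macrophage genes Lyz2, at 434 to 1112 CPM, and Adgre1, at 28.7 to 75.7 CPM, were present, and of 13 macrophage genes tested 2 were higher and 1 lower than in E-titled skin. Fewer cells of a type and less RNA per cell cannot be told apart in any of these bulk samples.

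**Figure D1:**
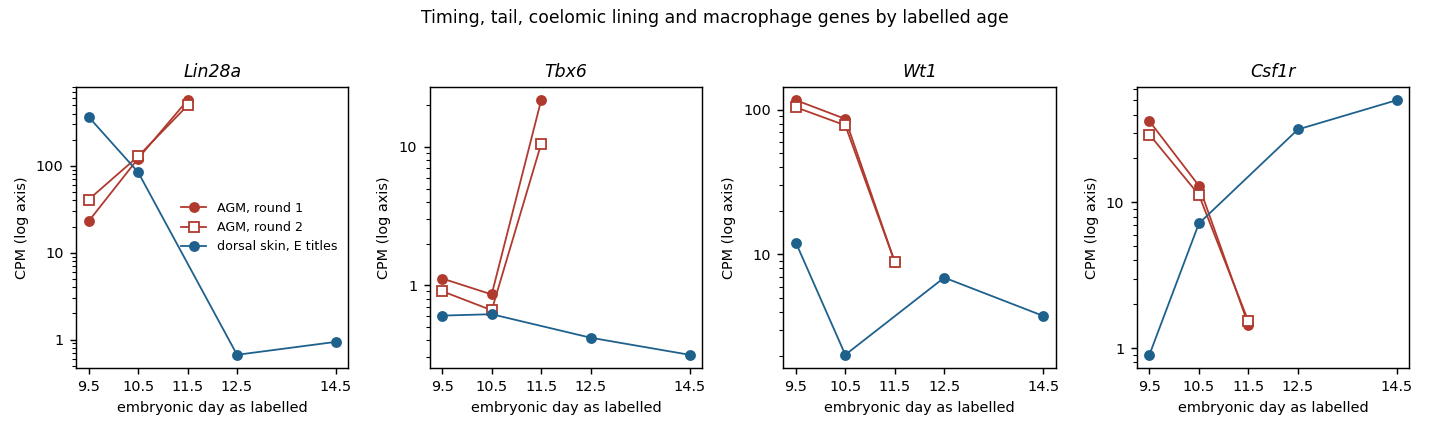
Level in CPM (log axis) by labelled embryonic day of 4 genes in the AGM libraries of both rounds (red) and in E-titled dorsal skin (blue), 1 point per library and no error bars. Lin28a runs downward from E9.5 to E12.5 in skin and upward with the label in AGM, while Csf1r of macrophages does the opposite, and Wt1 is lowest in the AGM libraries labelled E11.5.

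Levels between genes are compared per kilobase of exon (CPM per kb), from the exon lengths of GENCODE M21. In the AGM libraries labelled E9.5, Cd34 stood highest at 8.56 and 7.48 CPM per kb, Itga2b at 5.71 and 3.10 overlapped Adgrg1 at 5.70 and 3.37, Procr followed at 1.98 and 1.74, Ptprc at 0.442 and 0.343, and Flt3 last at 0.0767 and 0.0399. The order in E-titled skin differed: Adgrg1 (10.2 to 27.7 CPM per kb) overlapped Cd34 (8.87 to 22.3), and Itga2b (0.92 to 1.35) overlapped Procr (0.715 to 2.09). In ES-titled skin Procr was highest at 22.7 to 32.1 CPM per kb, above Cd34 at 11.8 to 19.2. Itga2b (0.546 to 0.812) and Ptprc (0.424 to 0.867) overlapped there, as did Flt3 (0.0239 to 0.11) and Adgrg1 (0.0209 to 0.0597) at the bottom. Adgrg1 thus lay at the top of the order with Cd34 in E-titled skin and at its foot with Flt3 in ES-titled skin.

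**Figure D2:**
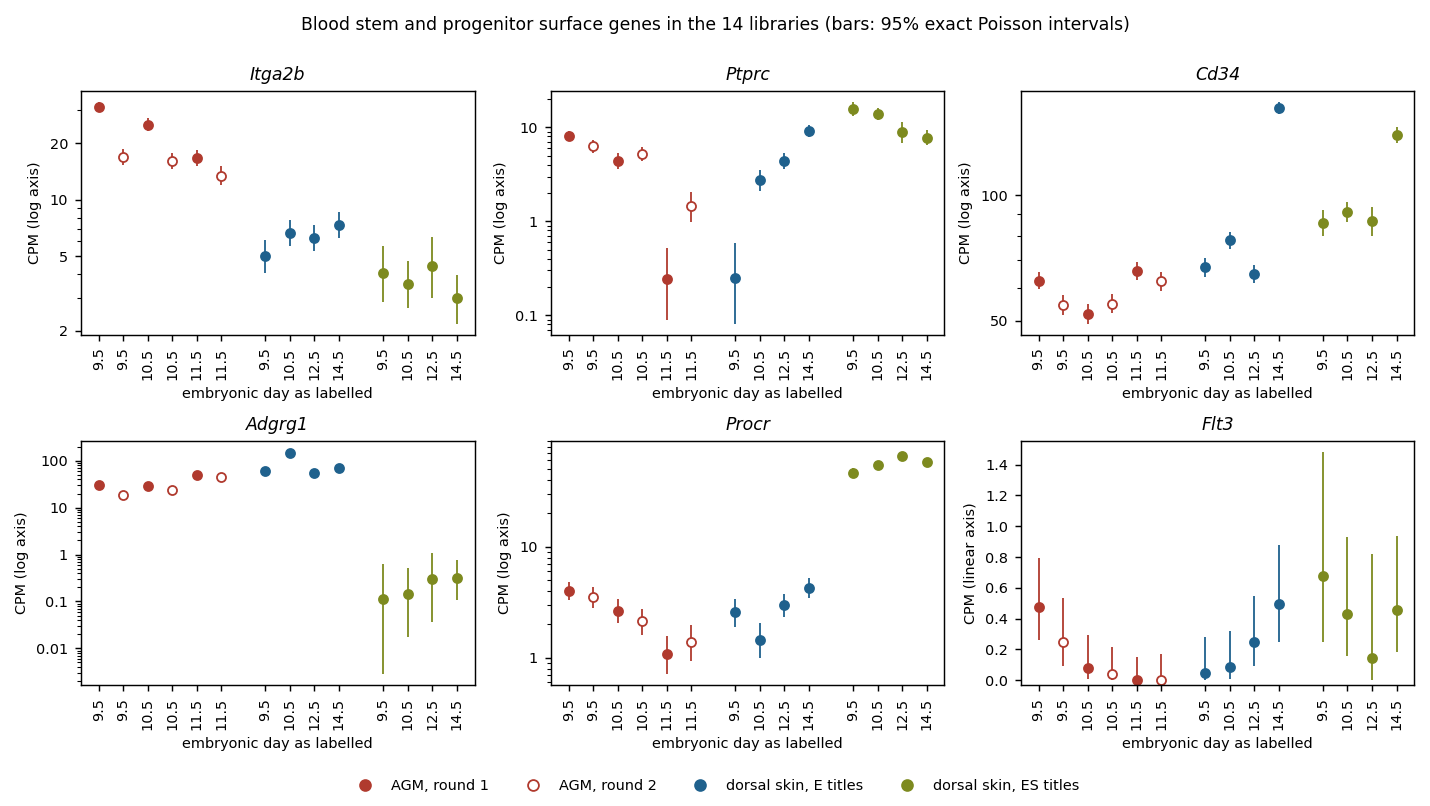
CPM of the 6 genes in each of the 14 libraries by labelled embryonic day; bars are 95% exact Poisson intervals for counting error, axes are logarithmic except for Flt3. Itga2b is higher in all 6 AGM libraries than in any skin library, Procr and Adgrg1 separate the 2 skin series, and Flt3 reaches no more than 0.68 CPM.

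Differences were tested with edgeR and called at an adjusted p under 0.05. AGM ages were fitted over the 6 AGM libraries. AGM against E-titled skin and the ages of E-titled skin were fitted over 10 libraries, in which each skin day is a lone library taken to vary as the AGM pairs do, so those p-values carry no skin replicate. Tissue and project label cannot be told apart, and the comparisons share AGM and skin libraries with each other. Comparisons of AGM with skin by day, and of their changes, also rest on the AGM age labels, whose exchange was not tested. Replicate numbers mark the AGM rounds, and the value with the round as a block is given wherever it changed a call. Flt3 did not pass the low-count filter in the fit of the AGM libraries or in that of the skin series.

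From the AGM label E9.5 to E10.5, edgeR called 0 of the 5 genes tested (1, Procr, at an unadjusted p under 0.05, and 0 with DESeq2), where 2.59% of all genes were called, 0.874% higher and 1.72% lower. From E10.5 to E11.5 it called 4 of 5, Cd34 and Adgrg1 higher and Ptprc and Procr lower, where 27.2% of all genes were called, 11.8% higher and 15.4% lower. From E9.5 to E11.5 it called 3 of 5, Adgrg1 higher and Ptprc and Procr lower, where 45.2% of all genes were called, 21.1% higher and 24% lower.

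Against E-titled skin of the labelled day, 3 of 6 genes were called at E9.5, Itga2b and Ptprc higher in AGM and Adgrg1 lower, beside 33.9% of all genes (18% higher, 15.9% lower). At E10.5 3 of 6 were called, Itga2b higher in AGM and Cd34 and Adgrg1 lower, beside 24% of all genes (11.7% higher, 12.2% lower). Within E-titled skin 1 of 6 was called in each step. Adgrg1 was higher at E10.5 than at E9.5, where 6.43% of all genes were called, 4.64% higher and 1.79% lower. It was lower at E12.5 than at E10.5, where 30.1% were called, 17.4% higher and 12.7% lower. Cd34 was higher at E14.5 than at E12.5, where 27.5% were called, 14.3% higher and 13.2% lower. The AGM change minus the skin change from E9.5 to E10.5 was called for 0 of 6 by edgeR (Ptprc and Adgrg1, 2 genes, had an unadjusted p under 0.05, and DESeq2 called those 2), beside 7.67% of all genes (2.63% higher, 5.04% lower). A comparison of ES-titled with E-titled skin over 8 libraries, with day as a term and added after seeing the data, called 2 of 5, Procr higher and Adgrg1 lower, beside 58.8% of all genes (29.5% higher, 29.3% lower). Each series has 1 library per day there, so its p-values and SE measure how much the difference varied between days. They do not measure the spread between libraries of a day. Title series and project label cannot be told apart in it. In these fits the share of all genes called ran from 2.59% to 58.8%. The members' counts are read against it, as are the counts for the gene lists below. With ES-titled libraries taken as replicates of E-titled skin over all 14 libraries, edgeR called 0 members in each AGM and skin comparison above (0 to 2 at an unadjusted p under 0.05), and the Ptprc difference between AGM and skin at E9.5 turned from 4.76 to -0.45.

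**Figure D3:**
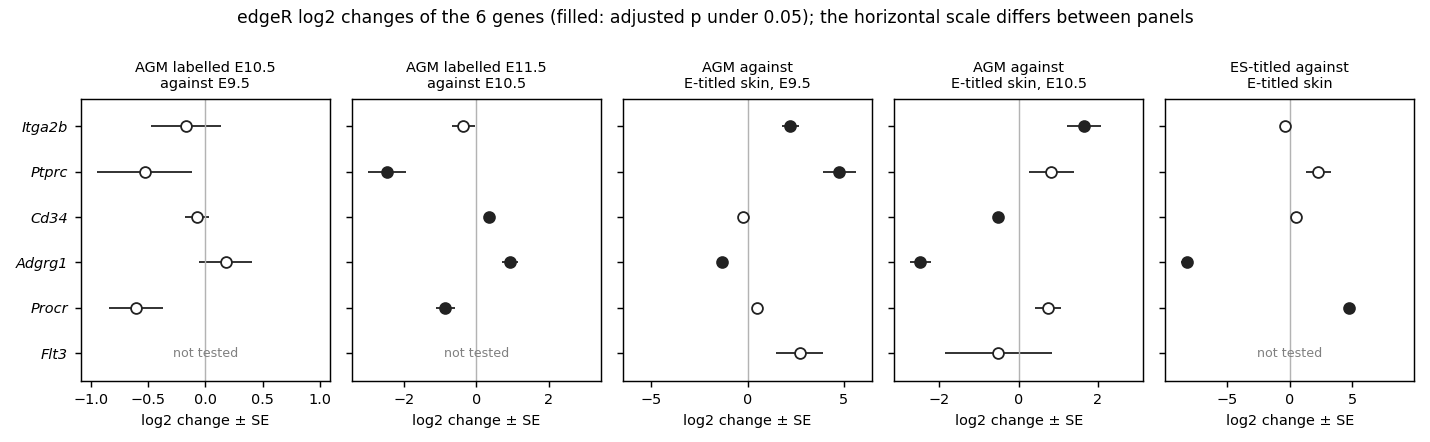
edgeR log2 change ± SE (horizontal axis, a different scale in each panel) of the 6 genes in 5 comparisons; filled points have an adjusted p under 0.05. Itga2b lies to the right in both AGM against skin panels and Adgrg1 to the left, and the ES-titled against E-titled panel sets Adgrg1 at -8.20 and Procr at 4.72. That Adgrg1 value rests on 1 to 5 counts per ES-titled library.

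Itga2b (ENSMUSG00000034664, chr11:102453297-102470122, minus strand, GRCm38) encodes the integrin alpha subunit that pairs with beta 3, the product of Itgb3, to form the fibrinogen receptor of platelets. Its AGM levels were 31.1 and 16.9 CPM in the libraries labelled E9.5, 25.1 and 16.1 in those labelled E10.5, and 16.7 and 13.4 in those labelled E11.5. E-titled skin held 5.02, 6.65, 6.25 and 7.34 CPM from E9.5 to E14.5, and ES-titled skin 4.08, 3.56, 4.43 and 2.98. Every AGM library was above every skin library, and round 1 was above round 2 at each AGM label. Itga2b was higher in AGM than in E-titled skin by 2.21 ± 0.45 on the log2 scale at E9.5 (edgeR adjusted p = 0.00661) and by 1.64 ± 0.42 at E10.5 (adjusted p = 0.0248). Without the round 1 library labelled E10.5 the latter was 1.27 (adjusted p = 0.0674). Among AGM labels no change was called, at -0.36 ± 0.31 from E10.5 to E11.5 (adjusted p = 0.436) and -0.53 ± 0.31 from E9.5 to E11.5 (adjusted p = 0.202). Without the round 1 library labelled E10.5 the former was 0.00993 (adjusted p = 0.989), and without the round 1 library labelled E9.5 the latter was -0.0206 (adjusted p = 0.964). With the round as a block both were called lower, at -0.34 (adjusted p = 0.0318) and -0.49 (adjusted p = 0.00288), and without the round 2 library labelled E9.5 the latter was -0.90 (adjusted p = 0.0332). It was also called without the low-count filter (-0.55, adjusted p = 0.00313).

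Megakaryocyte and red cell genes moved beside Itga2b. Of 12 megakaryocyte and platelet genes, 10 were higher and 1 lower in AGM than in E-titled skin at E9.5, with a median log2 difference of 2.64 beside 0.04 over all genes, and 3 were higher at E10.5. Their summed level was 60.4 to 192 CPM in AGM and 39.6 to 66.1 CPM in E-titled skin, and none of the 12 was at 0 in either. Pf4, a platelet chemokine, was higher in AGM by 3.34 ± 0.50 at E9.5. It was at 19.0 and 9.37 CPM at the AGM label E9.5 and at 2.82 and 2.93 at E11.5. E-titled skin at E9.5 held 1.355 CPM. The list's sum was 192 and 97.9 CPM at the AGM label E9.5, 71.7 and 60.4 at E11.5, and 39.6 in that skin library. The size of these E9.5 differences thus rests on the AGM age labels. All 11 erythroid genes were higher in AGM at E9.5 and 8 of 11 at E10.5, and the haemoglobin sum was 0.924% to 2.05% of counts in AGM against 0.233% to 0.839% in E-titled skin. Set against the megakaryocyte sum, Itga2b was 16.2% to 23.3% in AGM and 11.1% to 13.9% in E-titled skin. The part of these cells in the Itga2b difference was not tested. In ES-titled skin the sum of the same list was 419 to 468 CPM, of which Itgb3 alone gave 378 to 419. Of 8 list genes tested, 3 were higher there than in E-titled skin (Itgb3, Pf4 and Ppbp) and 3 lower (Gp5, Clec1b and Vwf). Shares over all genes were 29.5% and 29.3%. Pf4 was at 58.3, 66.2, 28.7 and 37.6 CPM over the days (3.68 ± 0.73, edgeR adjusted p = 0.00692). Gp9, a platelet-defining gene, was at 0 in all 4 libraries.

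Ptprc (ENSMUSG00000026395, chr1:138062861-138175708, minus strand) encodes CD45, a tyrosine phosphatase that acts on Src family kinases in white blood cells. It was at 8.09 and 6.29 CPM in the AGM libraries labelled E9.5, at 4.41 and 5.19 in those labelled E10.5, and at 0.242 (6 counts) and 1.44 in those labelled E11.5. The 2 libraries labelled E11.5 lay below the other 4, and apart from each other. From the label E10.5 to E11.5 the log2 change was -2.47 ± 0.52 (edgeR adjusted p = 0.0105) and from E9.5 to E11.5 -3.00 ± 0.51 (adjusted p = 0.00221). Both calls held without either library labelled E11.5, but their size rested on which was kept: -4.18 (adjusted p = 7.53e-04) and -4.71 (adjusted p = 2.39e-04) without round 2, and -1.66 (adjusted p = 0.0115) and -2.19 (adjusted p = 0.00197) without round 1. In E-titled skin it went from 0.251 CPM (5 counts) at E9.5 to 2.73, 4.37 and 9.18 CPM at the later days. The step from E9.5 to E10.5, 3.42 ± 0.97, was not called (adjusted p = 0.0871), but was with the round as a block (adjusted p = 0.0206), with DESeq2 (3.43, adjusted p = 0.00979) and without either AGM library labelled E11.5 (adjusted p = 0.0123 without round 1 and 0.0117 without round 2). The difference between the AGM and skin changes over that interval was -3.94 ± 1.06 (adjusted p = 0.0628, and 0.0108 with the block). AGM was above E-titled skin by 4.76 ± 0.85 at E9.5 (adjusted p = 0.00394). The AGM libraries labelled E11.5, at 0.242 and 1.44 CPM, stood beside 0.251 CPM in that skin library, so this difference rests on the age labels of the AGM libraries, whose exchange was not tested. At E10.5 the difference of 0.83 ± 0.56 was not called (adjusted p = 0.333). The later skin steps were 0.63 ± 0.64 (adjusted p = 0.502) and 1.199 ± 0.60 (adjusted p = 0.181), the last called without the round 1 (adjusted p = 0.0277) or round 2 (adjusted p = 0.0269) AGM library labelled E11.5.

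ES-titled skin held Ptprc at 15.9, 13.9, 8.86 and 7.77 CPM over the days. The ratio to E-titled skin was 63.3 at E9.5 (95% counting interval 26.5 to 198), 5.09 on the next day, 2.03 on the one after, and 0.847 at E14.5 (0.67 to 1.07), where the levels could not be told apart by counting error. Over the 4 days the difference was 2.30 ± 1.03 (edgeR adjusted p = 0.1), and it was called with DESeq2 (2.37, adjusted p = 0.00809) and without E14.5 (3.06, adjusted p = 0.0404). Without E9.5 it was 1.37 (adjusted p = 0.13).

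The macrophage list ran alongside Ptprc in the AGM and in E-titled skin. It summed to 175 and 160 CPM in the AGM libraries labelled E9.5, 70.5 and 64.6 in those labelled E10.5, and 7.9 and 9.29 in those labelled E11.5. Of 13 macrophage genes tested, 11 were lower at the label E10.5 than at E9.5, 12 were lower at E11.5 than at E10.5, and all 13 were lower at E11.5 than at E9.5, with a median log2 change of -5.48 beside a median near 0 over all genes. Adgre1, which encodes the macrophage antigen F4/80, was at 0 in both libraries labelled E11.5, and 4 and 6 of the 14 list genes were at 0 there. In E-titled skin the sum went from 7.83 to 31.4, 173 and 307 CPM over the 4 days. Ptprc as a percent of that sum was 3.93% to 8.04% in the 4 AGM libraries with the earlier labels, 3.06% and 15.5% in those labelled E11.5, 2.53% to 8.70% in E-titled skin and 0.894% to 1.49% in ES-titled skin. Lyz2 alone made up 68.8% to 74.6% of the sum in ES-titled skin and 1% to 7.25% in the other libraries. Without Lyz2 in the sum, Ptprc was 3.15% to 5.48% of it in ES-titled skin, 2.61% to 9.06% in E-titled skin and 3.18% to 15.7% in AGM, ranges that overlap. The part of macrophages in the level of Ptprc was not tested.

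**Figure D4:**
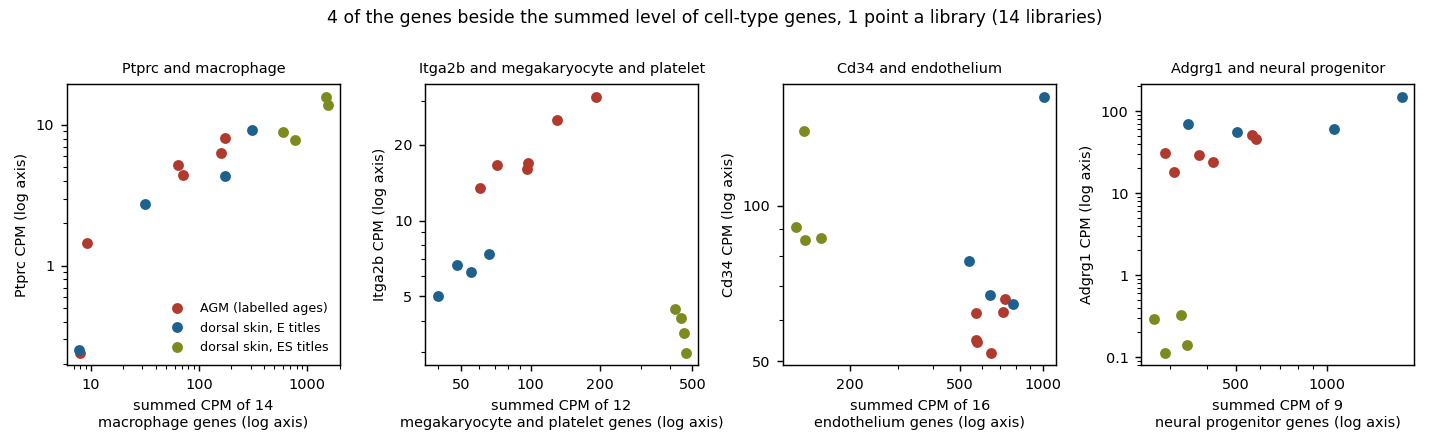
CPM of Ptprc, Itga2b, Cd34 and Adgrg1 (vertical log axes) beside the summed CPM of macrophage, megakaryocyte, endothelial and neural progenitor genes (horizontal log axes), 1 point per library, with AGM in red, E-titled skin in blue and ES-titled skin in olive. Ptprc and the macrophage sum go down together from label to label in AGM and up together from day to day in E-titled skin. The ES-titled libraries leave the trend of the others in each panel. In the Ptprc panel they lie toward higher macrophage sums, of which Lyz2 made up 68.8% to 74.6%.

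Cd34 (ENSMUSG00000016494, chr1:194938819-194961279, plus strand) encodes a sialomucin of endothelium and stem cells, and also of later mesenchyme. It was the steadiest member in the AGM, where the highest library stood 1.27 times above the lowest: 62.4 and 54.5 CPM at the label E9.5, 52.0 and 55.0 at E10.5, and 65.9 and 62.1 at E11.5. The label E11.5 was above E10.5 without overlap, by 0.35 ± 0.10 on the log2 scale (edgeR adjusted p = 0.0413), and the call was lost without any of those 4 libraries (adjusted p between 0.0779 and 0.199). From E9.5 to E11.5 the change was 0.28 ± 0.10 (adjusted p = 0.0625, and 0.00353 with the round as a block). E-titled skin held 67.1, 78.0, 64.7 and 162 CPM. The last step, from E12.5 to E14.5, was 1.46 ± 0.15 (adjusted p = 2.40e-04), and the step from E10.5 to E12.5 was -0.32 ± 0.15 (adjusted p = 0.138, and 0.00858 with the block). AGM stood below E-titled skin at E10.5 by a log2 difference of -0.53 ± 0.12 (adjusted p = 0.0167). That call was lost without the round 1 (adjusted p = 0.0774) or the round 2 library labelled E10.5 (adjusted p = 0.0552). At E9.5 the difference was -0.25 ± 0.13 (adjusted p = 0.165, and 0.0169 with the block).

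Endothelial genes gave a different picture from Cd34 in the skin series. Their sum was 572 to 727 CPM in AGM and 542 to 1007 CPM in E-titled skin, and from the AGM label E10.5 to E11.5 2 of 16 genes were higher and 1 lower. In E-titled skin 6 of 16 were higher at E14.5 than at E12.5, and 6 of 8 mesenchyme genes were higher and 2 lower over that step. Cd34 amounted to 8.02% to 10.9% of the endothelial sum in AGM and 8.33% to 16.1% in E-titled skin. In ES-titled skin it was at 85.8, 91.1, 86.6 and 140 CPM, while the endothelial sum was 127 to 158 CPM with 3 of 16 genes at 0 in each library, so that Cd34 reached 54.8% to 102% of it. Of the 16 endothelial genes, 15 were lower in ES-titled than in E-titled skin and Flt1 was higher. Cd34 itself differed between the series by 0.53 ± 0.19 (adjusted p = 0.0503, called with DESeq2 at 0.039 and with median-of-ratios scaling at 0.0456), and E14.5 was the highest day in both series.

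Procr (ENSMUSG00000027611, chr2:155751117-155755471, plus strand) encodes the endothelial protein C receptor, which presents protein C to the thrombin-thrombomodulin complex and marks the most primitive blood stem cells. In the AGM it was at 4.03 and 3.53 CPM, then 2.65 and 2.13, then 1.09 and 1.39 in label order, so that the 3 labels did not overlap. The change was -0.61 ± 0.23 from E9.5 to E10.5 (edgeR adjusted p = 0.208), -0.86 ± 0.26 from E10.5 to E11.5 (adjusted p = 0.0431) and -1.47 ± 0.25 from E9.5 to E11.5 (adjusted p = 0.00229). The middle of these was lost in each fit that left out 1 of the 6 libraries (adjusted p between 0.0562 and 0.219) and with DESeq2 (adjusted p = 0.12). E-titled skin held 2.56, 1.45, 2.96 and 4.25 CPM, and no step was called there except from E10.5 to E12.5 with the round as a block (0.97, adjusted p = 0.0437, against 0.0786 without). AGM and E-titled skin differed by 0.51 ± 0.30 at E9.5 (adjusted p = 0.226) and 0.73 ± 0.33 at E10.5 (adjusted p = 0.146).

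ES-titled skin held Procr at 46.1, 54.1, 65.3 and 57.9 CPM, all above any AGM or E-titled library. The ratio to E-titled skin of the same day was 18.0 at first (95% counting interval 13.4 to 24.6), then 37.3 (26.3 to 54.5), 22.1 (17.2 to 28.8) and lastly 13.6 (11.01 to 17.0). Over the 4 days the log2 difference was 4.72 ± 0.32 (edgeR adjusted p = 3.14e-04). Thbd, which encodes thrombomodulin, the partner of Procr in activating protein C, moved the same way, from 4.75 to 35.1 CPM in E-titled skin to 365 to 519 CPM in ES-titled skin (5.37 ± 0.56, adjusted p = 8.07e-04). Proc, the gene of protein C itself, was at 0 in all 4 ES-titled libraries and no higher than 0.403 CPM elsewhere. The thrombin receptor gene F2r was higher in ES-titled skin by 1.14 ± 0.22. Beside them, the mesenchyme sum was 6965 to 9537 CPM in ES-titled skin and 610 to 21950 CPM in E-titled skin, and the part of mesenchymal cells in the Procr level was not tested.

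Adgrg1 (ENSMUSG00000031785, chr8:94974751-95014217, plus strand) encodes GPR56, an adhesion receptor coupled to G proteins that binds collagen III and transglutaminase 2. In the AGM it was at 30.9 and 18.3 CPM at the label E9.5, 29.3 and 24.3 at E10.5, and 50.7 and 45.2 at E11.5, where both libraries were above the other 4. The change from E10.5 to E11.5 was 0.93 ± 0.23 (edgeR adjusted p = 0.0194) and from E9.5 to E11.5 1.11 ± 0.23 (adjusted p = 0.00533). The former was lost without the round 2 library labelled E10.5 (0.78, adjusted p = 0.115) or the round 1 library labelled E11.5 (0.83, adjusted p = 0.0831). E-titled skin held 60.5, 150, 55.2 and 69.7 CPM over the 4 days, with E10.5 highest. The step up to E10.5 was 1.31 ± 0.31 (adjusted p = 0.0441) and the step down to E12.5 -1.49 ± 0.31 (adjusted p = 0.00811). The step up was lost without the round 1 (adjusted p = 0.0729) or round 2 (adjusted p = 0.0702) AGM library labelled E11.5, neither of which enters the contrast itself. From E12.5 to E14.5 the change was 0.47 ± 0.31 (adjusted p = 0.312, and 0.0398 with the round as a block). AGM lay below E-titled skin at E9.5 by a log2 difference of -1.34 ± 0.26 (adjusted p = 0.00566) and at E10.5 by -2.47 ± 0.26 (adjusted p = 2.74e-04). The AGM libraries labelled E11.5, at 50.7 and 45.2 CPM, stood nearer to the 60.5 CPM of E-titled skin at E9.5. The size of the E9.5 difference therefore rests on the AGM age labels, whose exchange was not tested. The AGM change from E9.5 to E10.5 minus the skin change was -1.13 ± 0.38 (adjusted p = 0.118, 0.00275 with the block, and -1.46 at 0.0118 without the round 2 library labelled E9.5).

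Neural progenitor genes are given beside Adgrg1, since it is also a gene of such cells. Of 9 such genes, 6 were higher and 1 lower at the AGM label E11.5 than at E10.5, 8 were lower in AGM than in E-titled skin at E9.5 and all 9 at E10.5, and 8 were lower in E-titled skin at E12.5 than at E10.5. Their sum was highest at E10.5 in E-titled skin, at 1782 CPM against 1062 the day before and 501 and 346 CPM on the later days. In AGM it was 289 and 310, then 377 and 420, then 565 and 580 CPM in label order. Nes alone gave 487, 1001, 389 and 336 CPM of the sum in E-titled skin over the days, and 254 to 350 CPM in AGM. From E9.5 to E10.5 in E-titled skin 3 of the 9 were higher and 1 lower, beside 4.64% and 1.79% of all genes. Pax6 went from 118 to 111 CPM over that step and Sox2 from 195 to 277. Sox1, a transcription factor of neural progenitors, was at 91.8, 81.9, 3 and 0.0448 CPM in E-titled skin over the 4 days, and Adgrg1 was at 69.7 CPM on the last. Elsewhere they parted: 6 of 9 were higher at the AGM label E10.5 than at E9.5, where Adgrg1 changed by 0.18 ± 0.23 (adjusted p = 0.732), and 7 of 9 were lower in E-titled skin at E14.5 than at E12.5, where Adgrg1 was 0.47 ± 0.31 higher without a call. The part of neural tissue in the Adgrg1 level was not tested. Of its ligands, Col3a1 was at 381 and 429 CPM at the AGM label E11.5 against 988 to 1607 CPM in the other AGM libraries (-1.31 ± 0.16 from E10.5 to E11.5, adjusted p = 9.67e-04), and Tgm2 between 33.0 and 49.7 CPM in all 6.

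In ES-titled skin Adgrg1 was nearly absent, with 1, 2, 2 and 5 counts, or 0.113, 0.142, 0.295 and 0.324 CPM. E-titled skin was above it by a ratio of 534 at first (95% counting interval 95.6 to 21100), then 1055 (292 to 8715), 187 (51.7 to 1546) and lastly 215 (92.0 to 663). The log2 difference over the 4 days was -8.20 ± 0.47 (edgeR adjusted p = 2.52e-04). Adgrg1 passed the low-count filter of that fit through the E-titled libraries, where it was high, so this call is no separate support. Its size rests on the few counts in ES-titled skin. Among neural genes, Sox2 was at 11.3 to 57.9 CPM and Pax6 at no more than 0.113 CPM in these libraries. Adgrg1 and Procr thus differed between the skin series in opposite directions at each of the 4 days, while Cd34 was at 0.86 to 1.34 times and Itga2b at 0.406 to 0.813 times the E-titled level.

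Flt3 (ENSMUSG00000042817, chr5:147330741-147400489, minus strand) encodes the receptor tyrosine kinase for Flt3 ligand on multipotent and lymphoid progenitors. It had 14 and 6 counts (0.474 and 0.246 CPM) in the AGM libraries labelled E9.5, 2 and 1 in those labelled E10.5, and 0 in both labelled E11.5, where 0 counts allow up to 0.121 and 0.139 CPM at a floor of 3 counts, or 0.149 and 0.171 CPM at the upper end of the exact interval. Both libraries labelled E9.5 were above the other 4. Flt3 was kept out of the AGM fit by the filter, but it was called lower at E11.5 than at E9.5 with edgeR unfiltered (adjusted p = 0.00106). The filter let it into 5 leave-one-out fits, with log2 changes of -6.52 to -6.15. It was not let in without the round 1 library labelled E9.5, where it had 14 counts. It thus entered those fits through the label where it was high, and they are no separate support. The size of these fitted changes depends on the prior count, since both libraries labelled E11.5 were at 0. E-titled skin had 1, 2, 6 and 11 counts from E9.5 to E14.5, and ES-titled skin 6, 6, 1 and 7. The counting intervals of the AGM libraries labelled E9.5 (0.259 to 0.795 and 0.0905 to 0.537 CPM) overlapped those of E-titled skin at E12.5 and E14.5 (0.0917 to 0.544 and 0.246 to 0.881). In the fit with E-titled skin its AGM difference was 2.70 ± 1.22 at E9.5 (edgeR adjusted p = 0.13) and -0.51 ± 1.34 at E10.5 (adjusted p = 0.825), so a difference between AGM and skin was not detectable at this depth. The ligand gene Flt3l was at 1.69 to 3.304 CPM in AGM, 0.625 to 1.10 in E-titled skin and 3.92 to 6.46 in ES-titled skin, 3 ranges that did not overlap. It was higher in AGM than in E-titled skin by 1.54 ± 0.40 at E9.5 (adjusted p = 0.0198) and by 1.55 ± 0.36 at E10.5 (adjusted p = 0.0167), and higher in ES-titled than in E-titled skin by 2.79 ± 0.43 (adjusted p = 0.00285).

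The wider list of 14 other surface genes of blood stem cells had calls in 1 direction among AGM labels: of 13 tested, 2 were lower at E11.5 than at E10.5, beside 15.4% of all genes, and 5 lower at E11.5 than at E9.5, beside 24%, where the list's median was -0.53 beside a median near 0 over all genes. Kit, the stem cell factor receptor, was at 37.0 to 52.1 CPM in all 6 AGM libraries. Cd82, a tetraspanin, was at 9.75 and 7.77, 5.51 and 5.07, and 3.59 and 3.39 CPM in label order (-1.18 ± 0.19 from E9.5 to E11.5, edgeR adjusted p = 0.00152). Against E-titled skin 5 of 14 were higher and 1 lower in AGM at E9.5, and 2 higher and 1 lower at E10.5. In E-titled skin 3 of 14 rose from E10.5 to E12.5 and 6 of 14 from E12.5 to E14.5, where Cd44, a hyaluronan receptor, went from 30.8 to 270 CPM (3.26 ± 0.17, adjusted p = 1.42e-05). In ES-titled skin 6 of 10 tested were higher and 2 lower. Ly6a, which encodes the stem cell antigen Sca-1, was at 165 to 247 CPM there against 0.176 to 3.58 in E-titled skin (7.99 ± 0.97, adjusted p = 0.00123), while Kit was at 0.777 to 2.36 against 30.6 to 71.5 CPM (-4.55 ± 0.51, adjusted p = 0.00101).

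Of 16 blood stem cell transcription factors, 1 was lower at the AGM label E10.5 than at E9.5, and from E10.5 to E11.5 1 was higher and 5 lower. The 1 gene was Gata2, at 47.8 and 30.8, then 17.0 and 10.9, then 7.37 and 5.57 CPM in label order (-1.44 ± 0.27 from E9.5 to E10.5, edgeR adjusted p = 0.0387). Mecom (-1.40 ± 0.10), Fli1 (-1.12 ± 0.11) and Myb (-1.09 ± 0.18) were lower and Lmo2 higher (0.83 ± 0.15) at E11.5 than at E10.5. AGM was above E-titled skin for 9 and below for 2 of 16 at E9.5, beside 18% and 15.9% of all genes. It was above for 6 at E10.5, beside 11.7%. Runx1, needed for the emergence of stem cells from endothelium, was higher in AGM at E9.5 by 1.69 ± 0.35 (adjusted p = 0.00722). It was at 10.6 and 7.52 CPM at the AGM label E9.5 and at 3.91 and 4.55 at E11.5, beside 2.71 CPM in that skin library. The size of this difference thus rests on the AGM age labels. In ES-titled skin 11 of 14 tested were lower than in E-titled skin, beside 29.3% of all genes. Only Runx1 was higher there (33.4 to 47.9 against 2.71 to 26.3 CPM, 2.40 ± 0.62, adjusted p = 0.0177).

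The list of 18 ligands, partners and signalling neighbours of the 6 proteins had 14 members tested in AGM, of which 1 was higher and 2 lower at the label E11.5 than at E10.5. Podxl, a sialomucin related to Cd34, was the 1 higher gene, at 374 and 368 CPM against 122 and 118 (1.72 ± 0.11, edgeR adjusted p = 5.60e-05). Itgb3, the beta partner of Itga2b, was at 23.9 to 47.2 CPM in AGM and 8.28 to 28.0 in E-titled skin, and was higher in AGM by 2.06 ± 0.40 at E9.5 (adjusted p = 0.00546) and 1.54 ± 0.38 at E10.5 (adjusted p = 0.0203). Fermt3, which encodes the kindlin that activates integrins in blood cells, was higher by 2.30 ± 0.29 and 1.18 ± 0.27 at those days. At E9.5 6 of 16 list genes were higher and 2 lower in AGM, and at E10.5 6 were higher and 1 lower. In ES-titled skin 5 of 13 tested were higher and 4 lower, beside 29.5% and 29.3% of all genes. Itgb3 was at 378 to 419 CPM there (5.14 ± 0.35, adjusted p = 3.21e-04) while Itga2b was not higher. Lck, a Src family kinase on which Ptprc acts in lymphocytes, was lower there (-2.005 ± 0.48, adjusted p = 0.0133).

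The genes most like each member were sought over the 10 AGM and E-titled skin libraries, by Pearson correlation of log2(CPM + 1) among 12837 genes with a mean of at least 2 CPM. Those libraries share tissue, round and depth, so the values describe likeness only. Nearest to Itga2b were Dmtn (0.984), Hbb-y (0.969) and Ank1 (0.966), which are genes of the red cell membrane skeleton and of embryonic globin. Nearest to Ptprc were the white blood cell genes Nckap1l (0.978), Sash3 (0.977) and Fyb (0.973). Nearest to Cd34 were Fam57a (0.988), Znrf2 (0.98) and Gltp (0.978), and to Procr Xylt1 (0.973), Myo1d (0.956) and Afg1l (0.944). Among the genes nearest to Adgrg1 were Mon1b (0.959) and Plekha6 (0.957). Flt3, with at most 14 counts per library, lay nearest to Gk5 (0.951), Fam3a (0.95) and Efhd2 (0.947). In ES-titled skin, which the search did not use, Hbb-y was at 0 while Itga2b kept 2.98 to 4.43 CPM, and Myo1d was at 118 to 165 CPM against a mean of 14.98 in the 10 libraries. Among the members themselves the highest values were Procr with Flt3 (0.868), Ptprc with Flt3 (0.765) and Ptprc with Procr (0.744), those with Flt3 resting on its few counts, and the lowest was Itga2b with Adgrg1 (-0.712). Within the 6 AGM libraries the same pairs gave 0.888, 0.735 and 0.937, and -0.18 for Itga2b with Adgrg1. The 4 E-titled skin libraries are too few for such a value.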

How the data were processed

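PolyA RNA-seq of 6 AGM and 8 dorsal skin libraries was used. The authors deposited raw read counts per gene. The submitters' processing notes name the genome build GRCm38, the trimmer Trimmomatic 0.36, the aligner STAR 2.5.0a, the counter featureCounts 1.6.0 and the test DESeq2 1.20.0, while the settings of each, the strand setting and the annotation release are not given in the sources used here. Reads of genes that overlap an antisense gene may therefore be mixed. GENCODE M21 holds 53360 of the IDs, 51384 of them (96.3%) with the same coordinates, all 6 members included.

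The tests ran in edgeR 4.0.16 under R 4.3.3 on the counts as deposited: filterByExpr by group, TMM scaling, glmQLFit and glmQLFTest, and Benjamini-Hochberg over all genes of a comparison. The AGM fit held 17613 genes, the fit with E-titled skin 19945 and the skin series fit 16588, each with 3 residual degrees of freedom. Coefficients of variation from the common dispersion were 12.1%, 12.1% and 40.3%. In the AGM fit and the fit with E-titled skin they come from the AGM pairs, whose spread may be technical. In the skin series fit they hold differences between the series that vary by day. The tests were tried on simulated counts. Libraries with the same AGM replicate number deviated together (correlations 0.408, 0.29 and 0.333 across 17613 genes) and the labels tie the number to a round, so the round was tried as a block. Alternatives were median-of-ratios scaling, no low-count filter, DESeq2 1.42.0, no globin or mitochondrial genes, all 14 libraries with the skin series as replicates, and each library left out.

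The members, the 13 lists (140 genes, all in the table) and the tests were chosen with earlier results of these data known. 2 further lists, for timing and tail genes, were added after seeing the data. Named list genes are up to 3 called genes per list, comparison and direction with the largest changes and at least 5 CPM in the higher group; others named, including markers, ligands and receptors, were chosen after their values were seen. Itgam has 2 rows, and the one with more counts was used. Poisson and ratio intervals are exact at 95%, and a count of 0 allows up to 3 counts. Of the genes most like a member, 1 is not reported here.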

Additional observations from a re-analysis of the deposited data

Results flagged for a closer look

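Ptprc ran in opposite directions with the day in the 2 skin series. From E9.5 to E14.5 its CPM changed by 5.19 on the log2 scale in E-titled skin (0.251 to 9.18 CPM, from 5 to 205 counts) and by -1.03 in ES-titled skin (15.9 to 7.77 CPM), a difference of 6.22. The counting intervals of the 2 days did not overlap in either series. Each series has 1 library per day, so the difference between the series was not tested. Between the same days the macrophage sum went from 7.83 to 307 CPM in E-titled skin and from 1491 to 774 CPM in ES-titled skin. In ES-titled skin it was 1552 CPM at E10.5 and 596 at E12.5, so it rose over the first and last steps. Ptprc was lower after each of those steps, but within counting error. Its intervals were 13.35 to 18.73 and 12 to 15.98 CPM in the first, and 6.76 to 11.41 and 6.44 to 9.29 CPM in the last. Without Lyz2 the macrophage sum in ES-titled skin went from 379 to 242 CPM between E9.5 and E14.5. The part of macrophages in the Ptprc level was not tested. Groups of 1 or 2 libraries could not be searched for outlying samples.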

How the results depend on the processing

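Of 646 member log2 changes recomputed under alternatives, 564 kept direction and call, 32 gained a call, 33 lost one and 17 changed sign. Of these 17 only Ptprc in AGM against skin at E9.5 was a called change, 4.76 as reported and -0.45 with ES-titled skin taken as a replicate of E-titled skin. That setting turned 11 uncalled changes: AGM against skin for Procr (0.51 to -2.97 at E9.5, 0.73 to -3.81 at E10.5), Flt3 at E9.5 (to -0.17) and Ptprc at E10.5 (to -1.02); in the skin steps Procr (0.23) and Flt3 (-0.44) in the first, Itga2b (0.0375), Ptprc (-0.42) and Flt3 (-0.44) in the second and Procr (-0.0447) in the third; and Procr in the difference of changes (-0.84). Leaving out a library turned 5, in AGM from E9.5 to E10.5 for Itga2b with 2 (range -0.538 to 0.34), Cd34 (-0.166 to 0.0249) and Adgrg1 (-0.148 to 0.606), and from E10.5 to E11.5 for Itga2b (-0.662 to 0.00993). Treating the skin series as replicates over all 14 libraries left 0 members called in each comparison it covers, in place of 4 and 3 (AGM labels E11.5 against E10.5 and E9.5), 3 and 3 (AGM against skin) and 1, 1 and 1 (skin steps), with 0 to 2 at an unadjusted p under 0.05; its coefficient of variation was 81.5%. Pairing AGM libraries by round (replicate block) gave 5 called members from E9.5 to E11.5, 2, 3 and 2 in the skin steps and 2 in the difference of changes, and changed no other member count by over 1.5 times. From E9.5 to E11.5 the alternatives called up to 10860 of all genes, beside 7953 as reported. The block raised the counts of all genes in the skin steps and the difference too, so these member counts are not read apart from that rise. Without the low-count filter the counts were 5 from E9.5 to E11.5 (Itga2b and Flt3 added), 2 in the first and 2 in the last skin step, and 2 in the difference. DESeq2 called 2 in the first skin step, 2 in the difference and 4 between the skin series. Leaving out 1 library or day gave 1 to 3 from E10.5 to E11.5, 3 to 5 from E9.5 to E11.5 (Flt3 among them in 5 fits), 1 to 3 in AGM against skin at E10.5, 1 to 2 in the last skin step, 0 to 1 in the difference and 2 to 4 between the skin series (4 without E14.5, where Ptprc was called at 3.06 and Cd34 at 0.60). An age left with 1 library is assumed there to vary like the others.

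Counts of all genes called moved more. From E9.5 to E10.5 in AGM 457 genes became 1769 unfiltered, 931 with DESeq2, 4237 with the block, 24 without the round 1 library labelled E9.5, and 104 and 1 without the round 1 and round 2 libraries labelled E10.5. From E10.5 to E11.5, 4791 became 8491 with the block and 2794 to 3156 without any of its 4 libraries. AGM against skin went from 6759 and 4779 to 10234 and 8491 with the block, the skin steps from 1282, 6003 and 5488 to 3872, 9568 and 9023 (2151 unfiltered in the first), and the difference from 1530 to 5137 (2651 unfiltered, 930 to 959 without the round 1 library labelled E9.5 or either labelled E10.5). With all 14 libraries, 0 genes were called in these 9 comparisons, E9.5 to E11.5 in AGM (7953) included, and 27 to 1133 at an unadjusted p under 0.05. TMM scaling multiplied CPM by 0.912 to 1.02 in AGM, 0.899 to 0.99 in E-titled and 1.09 to 1.14 in ES-titled skin. Unfiltered, the median of all genes between the skin series was -0.40. Depth limits Flt3 in all libraries, Adgrg1 in ES-titled skin and Ptprc where it had 5 or 6 counts.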

Other observations

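Among genes on lists that mark other blood cells, 6 of 6 mast cell genes were higher in E-titled skin at E14.5 than at E12.5, beside 14.3% of all genes. Their summed level was 379 CPM at E14.5 against no more than 9.915 CPM in every other library. Each day is 1 library. Mcpt4 was at 0 and Tpsb2 at no more than 0.125 CPM in the other libraries of that fit. Both thus entered it through the library where they were high, and their calls are no separate support. Kit, which mast cells and melanoblasts also carry, was at 71.5 CPM at E14.5 against 30.6 to 35.2 CPM on the earlier days of that series. Of 7 lymphoid genes tested, 2 were lower in E-titled skin at E14.5 than at E12.5, beside 13.2% of all genes. Rag1, which lymphocytes need to join receptor genes, was at 1.93 and 1.40 CPM in the AGM libraries labelled E9.5, 0.694 and 1.01 in those labelled E10.5, 0.0403 and 0.139 in those labelled E11.5, and 4.21 CPM in E-titled skin at E12.5 alone among the skin libraries, the next highest being 0.443 CPM.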
